A study of Mus musculus with 12 samples.

Results

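Adult neural stem/progenitor cells (aNSPCs) of the mouse were exposed to NAD+ in 2 states, while dividing and while differentiating, and the genes described here are those whose response to NAD+ was not the same in both. The difference between the states was the NAD+ effect under differentiation conditions minus the NAD+ effect under proliferating conditions, on the scale of log2(FPKM + 0.1). FPKM is a count of sequenced fragments corrected for transcript length and sequencing depth, and the effect in 1 state is the mean of the NAD+ samples minus the mean of the Ctrl samples. All 12 samples of the series entered the comparison, 6 in each state, and the test covered 12928 genes of 55401 in the tables, those whose FPKM averaged 1 or more across all samples. The cells were taken from the forebrain of C57BL/6 mice of 8 to 10 weeks and kept in culture with EGF and FGF-2. The 4 groups of 3 samples were proliferating Ctrl, proliferating NAD+, differentiation Ctrl and differentiation NAD+. Differentiation medium held 1 µM retinoic acid and 5 µM forskolin in the study's differentiation assay, so that both differentiation groups carried these agents and neither proliferating group did. NAD+ was used at 1 mM. A field of the sample labels calls all 12 samples untreated, so the groups follow the sample titles. The 3 samples of a group are described as biological repeats, but neither the number of mice nor whether each was a separate culture is stated, and p-values measure only the spread between these samples, which may be technical.

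NAD+ is the electron carrier of glycolysis and of the mitochondrial respiratory chain, and it is consumed by sirtuins, poly(ADP-ribose) polymerases and the ectoenzyme CD38. Retinoic acid acts through nuclear receptors and forskolin through adenylyl cyclase and cAMP, and together they take aNSPCs out of the cell cycle towards neurons and glia. Astrocytes that meet inflammatory signals become reactive and make acute-phase and complement proteins, a response in which NF-kB, STAT and C/EBP factors are known to take part.

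The state of the cells showed in some of their markers and not in others. Nes, the filament of neural stem cells, lay between 47.8 and 97 FPKM in the 6 proliferating samples and between 9 and 12.3 in the 6 differentiation samples, while Gfap, the filament of astrocytes, lay between 11.3 and 20.5 and between 546 and 998.6. The newborn neuron marker Dcx lay between 1.02 and 1.82 and between 3.61 and 4.39. In mean FPKM of proliferating and differentiation Ctrl, other markers went both ways. Among stem cell genes Sox2 (225 and 147) and Fabp7 (2110 and 449) were lower under differentiation conditions, and Sox9 (39.5 and 38.1) was alike. Among astrocyte genes Aqp4 (8.24 and 34.8) and Slc1a2 (17.7 and 53) were higher. Aldh1l1 (92.3 and 93.5) was alike and S100b (163 and 94.8) was lower. Of the neuron genes, Elavl3 (3.09 and 5.35) and, by less, Tubb3 (9.51 and 11.9) were higher. Of 18 microglial markers, 16 had a mean under 1 FPKM, and the defining genes Trem2, C1qb, Tmem119 and Cx3cr1 did not exceed a mean of 0.06 in any group. The 16 endothelial and mural and the 5 erythroid markers had no member at a mean of 1 FPKM. Depth per sample is unknown, because FPKM values rounded to 0.01 hold no read counts. Replicate 1 of the proliferating Ctrl group stood apart, with an FPKM sum of 363330 against 308828 to 349649 in the other 11 samples, and it shared some high values with replicate 1 of proliferating NAD+. The astrocyte gene Aldh1l1 was at 129 against 72 and 75.6 FPKM in Ctrl and at 99.2 against 54.8 and 55.1 with NAD+, and the water channel Aqp4 at 13.7 against 5.23 and 5.82 and at 9.95 against 2.42 and 2.82. Mitochondrial genes held 16.4% to 19.9% of the FPKM sum in proliferating samples and 28.9% to 33.2% in differentiation samples.

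A difference between the states was called, at a limma adjusted p under 0.05, for 98 genes. It was higher under differentiation conditions for 42 of the 12928 tested genes (0.325%) and lower for 56 (0.433%). The called differences ranged in size from 0.46 to 3.68 on the log2 scale with a median of 0.90, and 95 of the 98 genes are protein coding. An unadjusted p under 0.05 was reached by 2423 genes (18.7%). More genes were called for the NAD+ effect within a state than for the difference. The difference has a larger standard error (median 0.19 against 0.14 for the effect in 1 state). The counts therefore do not show how many responses were shared. Under differentiation conditions 334 genes rose (2.58%) and 765 fell (5.92%), and under proliferating conditions 512 rose (3.96%) and 372 fell (2.88%). In the proliferating state 67 genes in place of 884 were called when its 6 samples were fitted alone, and 293 to 889 with 1 sample left out (293 without proliferating NAD+ replicate 3, 303 without its replicate 2 and 504 without proliferating Ctrl replicate 3). Of the 256 genes called in both states, 244 moved the same way, 89 up and 155 down, and 12 moved in opposite directions. Across all tested genes the effects in the 2 states had a Pearson r of 0.22, which is a description over genes that are not independent and between states that share no sample.

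The 98 genes fell into 3 main patterns. A response in the differentiation state only, that is an adjusted call there and an unadjusted p of at least 0.05 in the proliferating state, was found for 30 genes (0.232% of those tested), of which 14 were higher and 16 lower with NAD+. The reverse, a response in the proliferating state only, was found for 17 genes (0.131%), 10 higher and 7 lower. Effects of opposite sign, with an unadjusted p under 0.05 in each state, were found for 46 genes (0.356%). Of these 46, NAD+ acted upwards under differentiation conditions for 18 and downwards for 28, and 12 of them, 6 each way, passed the adjusted test in both states. The other 5 genes moved the same way in both states by unequal amounts. The scatter of effects shows these patterns as points along the vertical axis, along the horizontal axis and in the upper left and lower right corners.

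**Figure D1:**
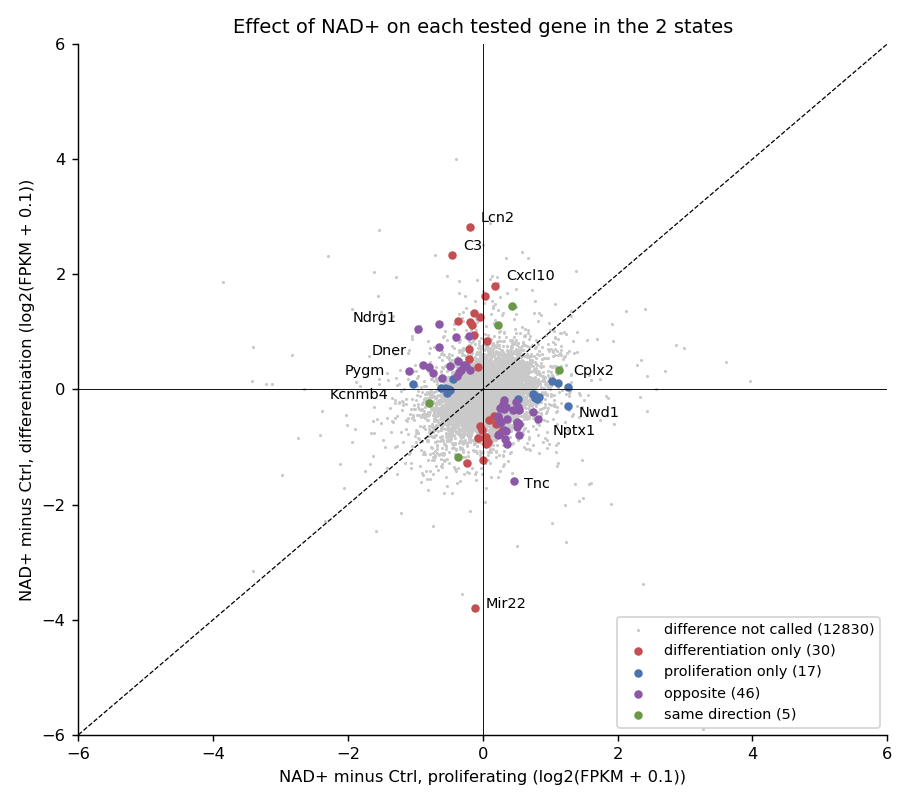
NAD+ minus Ctrl on the log2(FPKM + 0.1) scale in the proliferating state (horizontal axis) and in the differentiation state (vertical axis), 1 point for each of the 12928 tested genes. Coloured points are the 98 genes with a called difference, by pattern, the dashed line marks equal effects, and Lcn2 (2.82 on the vertical axis) and Mir22 (-3.79) lie farthest from it among them.

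The split into higher and lower differences depended on how samples were scaled. As deposited, the median effect over all tested genes was 0.08 in the proliferating state and -0.08 in the differentiation state, so that the median difference was -0.16, and a gene at 0 lies 0.16 above the typical gene. With median-ratio scaling, which sets the typical gene to no change, 90 genes were higher and 21 lower. Of these, 42 and 20 were among the genes called here. Quantile normalization gave 89 higher and 34 lower, and scaling to the sum without mitochondrial genes 38 higher and 80 lower. Under all 4 scalings 48 of the 98 genes were called, 30 higher and 18 lower, and 32 of the 48 kept their pattern. The patterns moved with the scaling as well. Median-ratio scaling gave 25 higher and 9 lower genes in the differentiation state only, 3 higher and 22 lower in the proliferating state only, and 39 and 7 of opposite sign. Single libraries also weighed on the counts, as 308 genes were called without replicate 1 of proliferating Ctrl and 29 without replicate 3 of proliferating NAD+. In each of the 12 fits that left out 1 sample 27 of the 98 genes were called, and below these genes are said to be called in all 12 fits.

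**Figure D2:**
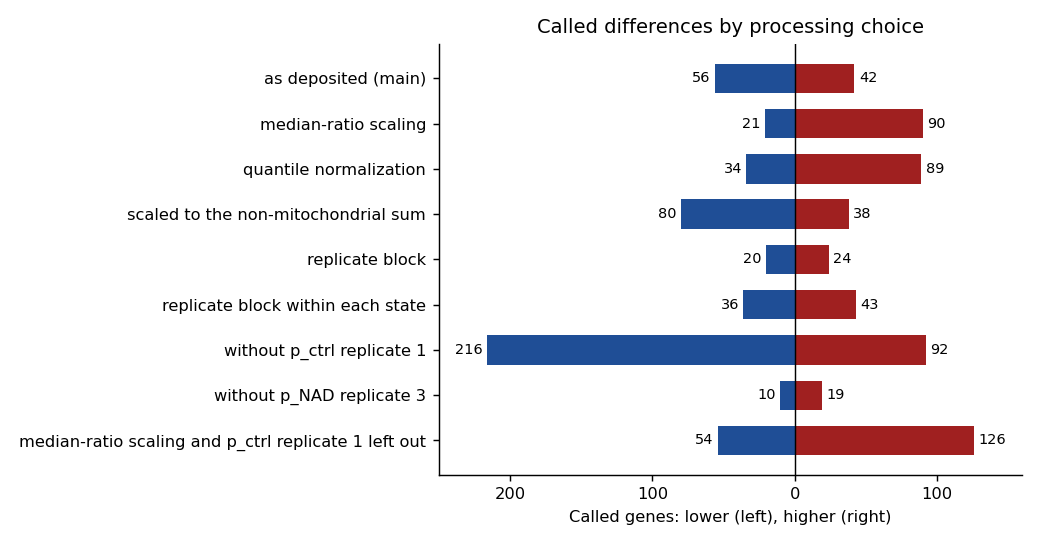
Number of genes with a called difference (horizontal axis), lower under differentiation conditions to the left and higher to the right, for 9 ways of processing, 3 of which leave out 1 sample. The deposited values gave 56 and 42, median-ratio scaling 21 and 90, and leaving out replicate 1 of proliferating Ctrl (p_ctrl) 216 and 92.

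Several genes of the reactive astrocyte and acute-phase response rose with NAD+ in the differentiation state. Of the 16 tested members of a reactive astrocyte list, 7 averaged under 1 FPKM in the proliferating state and were tested only through their differentiation values. Among the called differences, this holds for Lcn2, C3 and Cxcl10, and nothing is read from the 16 members as a whole. Of the 9 members with a mean of at least 1 FPKM in each state, a set drawn up after seeing the data, 2 had a called difference, Cp and H2-D1, both higher under differentiation conditions, against 0.325% of all genes. In the differentiation state 7 of the 9 rose and 0 fell, against 2.58% of all genes that rose, and in the proliferating state 2 rose (Timp1 and Cd109) and 0 fell, against 3.96%. The median effect of the 9 was 0.75 in the differentiation state and -0.01 in the proliferating state, and the median difference was 0.77, against -0.16 over all genes. The list was chosen with earlier results of these samples known, and is no independent evidence of its direction.

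Lcn2 (chromosome 2 from 32384633 to 32388252 of mm10) encodes lipocalin 2, a secreted protein that binds iron-carrying siderophores and is induced in reactive astrocytes. Its FPKM values were 27.6, 21.6 and 25.7 in differentiation Ctrl and 176, 173 and 178 in differentiation NAD+. In the proliferating state it was close to absent, at 0.08, 0 and 0.05 in Ctrl and 0, 0.03 and 0.04 with NAD+. The 2 differentiation groups did not overlap, whereas all 6 proliferating values lay under the number of 0.1 that was added before taking logs. Its effect was 2.82 in the differentiation state and -0.19 in the proliferating state (95% interval -0.64 to 0.26), and the difference was 3.01 (standard error 0.29, limma adjusted p = 0.00181), the highest among the called genes. It was called in all 12 fits, while with 0.01 added in place of 0.1 it was not (limma adjusted p = 0.151).

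C3 (chromosome 17 from 57203970 to 57228136), the central component of complement, had 90.9, 81 and 83.7 FPKM in differentiation Ctrl and 436, 429 and 425 with NAD+. The proliferating values were 0.37, 0.09 and 0.06 in Ctrl and 0.03, 0.07 and 0.15 with NAD+. As for Lcn2, only the differentiation groups were apart, and the proliferating values were near the floor of the measurement. The difference was 2.79 (standard error 0.49, limma adjusted p = 0.0319), but 7 of the 12 fits without 1 sample did not call it, nor did quantile normalization. Cxcl10, a chemokine for T cells induced by interferons, was at 12.6, 10.8 and 12.2 in differentiation Ctrl and at 43.1, 40.3 and 41.7 with NAD+, against 0.14 to 0.28 in all proliferating samples (difference 1.62, limma adjusted p = 0.012). Cp encodes ceruloplasmin, the copper-carrying ferroxidase of plasma and astrocytes. Unlike the first 3 genes it was well expressed in both states, at 3.79, 5.34 and 5.31 in proliferating Ctrl and 4.75, 4.60 and 4.57 with NAD+, so that its effect there, -0.03 with a 95% interval from -0.34 to 0.27, does not rest on the floor. In the differentiation state it rose from 13.8, 11.2 and 14.5 to 31.7, 28.8 and 34.3, and the difference was 1.30 (limma adjusted p = 0.0162). Cp overlaps Hps3 on the other strand, which had a mean of 1.65.

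**Figure D3:**
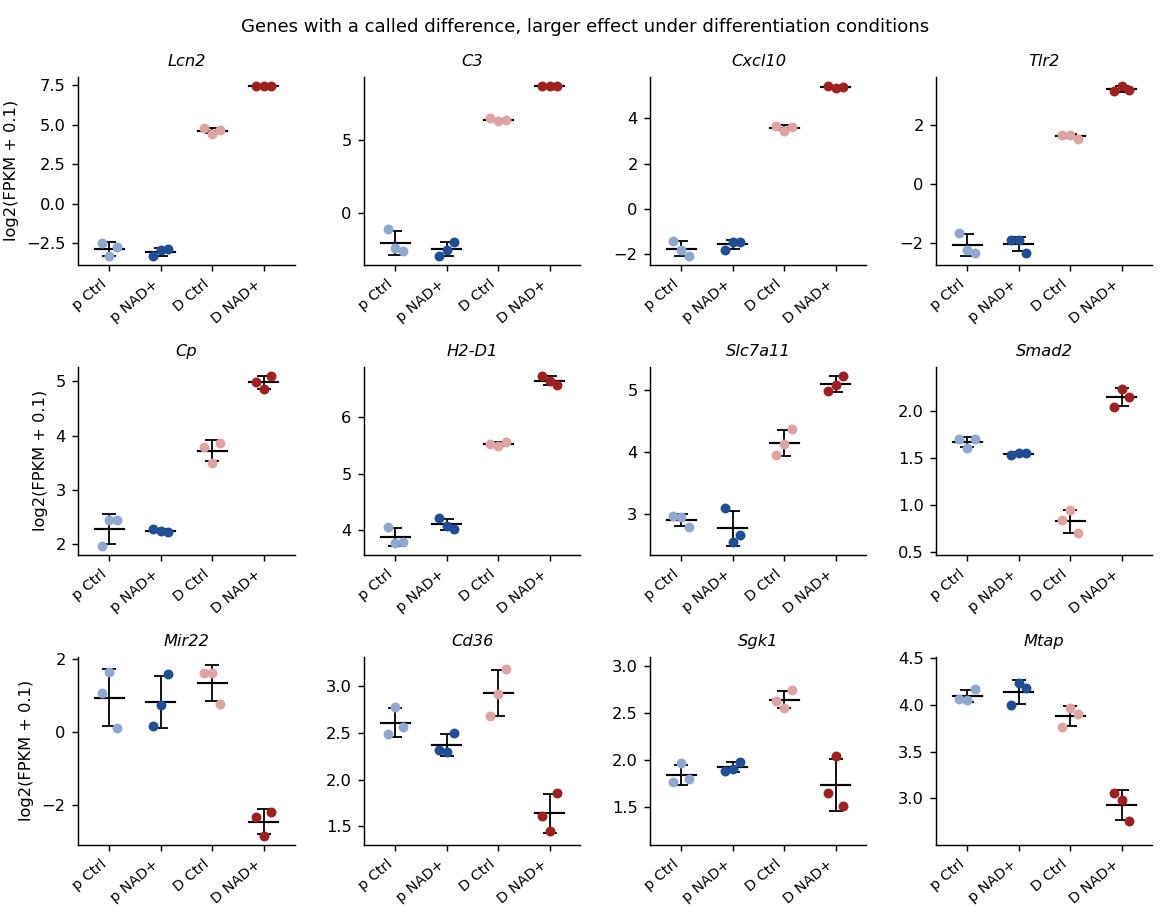
log2(FPKM + 0.1) of 12 genes with a called difference in each sample (points), with the mean and SD of the 3 samples (bars), in proliferating Ctrl and NAD+ (p, blue) and in differentiation Ctrl and NAD+ (D, red). The 2 differentiation groups are apart in every panel, upwards in the first 8 and downwards in the last 4 (Mir22, Cd36, Sgk1 and Mtap), and the means of the proliferating groups lie closer together than those of the differentiation groups.

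The other members of the list showed how far this pattern held. Steap4, a metalloreductase induced in inflammation, rose from 6.49 to 34.1 mean FPKM in the differentiation state, but the difference of 1.81 did not pass the test (limma adjusted p = 0.127). Gfap rose in the differentiation state from 546 to 642 FPKM to values of 965 to 998.6, and the difference of 1.14 did not pass (limma adjusted p = 0.0617). Serpina3n, a protease inhibitor used as a general marker of reactive astrocytes, had a mean of 163 FPKM in differentiation Ctrl and 202 with NAD+, an effect of 0.30 that did not pass in that state (limma adjusted p = 0.356). Timp1, an inhibitor of metalloproteases, rose in both states by 1.08 and 0.92. Fewer cells of a type and less RNA per cell cannot be told apart in these bulk samples. Among the microglial markers, Cd68, a lysosomal glycoprotein of macrophages, rose in both states, from a mean of 0.98 to 4.26 and from 1.59 to 3.57, while the defining genes Trem2, C1qb, Tmem119 and Cx3cr1 stayed near 0. The part of Cd68 in these results was not tested.

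Neighbouring functions of innate immunity followed in part. Of 17 tested interferon and guanylate-binding protein genes, 11 had a mean of at least 1 FPKM in each state. Of these 11, 5 rose in the differentiation state, against 2.58% of all genes, and 0 were called in the proliferating state, with median effects of 0.62 and 0.14. Gbp3 alone had a called difference (1.56, limma adjusted p = 0.042, called in 1 of 12 fits), against 0.758% of all tested genes. Gbp3 had 1.32, 1.21 and 1.29 FPKM in differentiation Ctrl and 3.09, 3.17 and 2.86 with NAD+. Gbp2, of the same family of interferon-induced GTPases, rose in both states, from 0.64 to 1.23 and from 6.68 to 16.5 mean FPKM, and its difference of 0.43 did not pass. Of 16 tested genes of MHC class I antigen presentation, 6 rose in the differentiation state (2.58% of all genes) and 1 in the proliferating state (3.96% of all genes). A called difference was found for 2 of the 16, against 0.758% of all tested genes. These were H2-D1 (0.90, limma adjusted p = 0.012, called in all 12 fits) and H2-Q4 (1.30, limma adjusted p = 0.0237, called in 6 of 12 fits). By their unadjusted p in the proliferating state, H2-D1 counted as the same direction by unequal amounts and H2-Q4 as opposite in sign. H2-D1, a classical class I heavy chain, had 16.5, 13.6 and 13.7 FPKM in proliferating Ctrl, 18.5, 16.6 and 16.2 with NAD+, 46.2, 44.7 and 47 in differentiation Ctrl and 107, 100 and 94.7 with NAD+. Class I and guanylate-binding protein genes have near-identical copies, and only uniquely mapped reads were counted, so their levels are uncertain. B2m, the shared light chain, rose in the differentiation state from a mean of 136 to 229 FPKM, with a difference of 0.70 that did not pass (limma adjusted p = 0.159).

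Of 17 tested genes of NF-kB, Toll-like receptor and chemokine signalling, 2 had a called difference, against 0.758% of all tested genes. These were Cxcl10 and Tlr2, both near 0 in the proliferating state. None of the 14 members with a mean of at least 1 FPKM in each state had a called difference by limma, and their median effects were 0.07 in the proliferating and -0.05 in the differentiation state. Tlr2, a receptor for bacterial lipoproteins, had 3.06, 3.06 and 2.81 FPKM in differentiation Ctrl and 8.77, 10.1 and 9.17 with NAD+, against 0.10 to 0.22 in the proliferating samples (difference 1.58, limma adjusted p = 0.0427, called in 4 of 12 fits). None of 19 tested genes of the IL-6, STAT3 and C/EBP list had a called difference by limma. An unadjusted p under 0.05 was reached by 6 of them, against 18.7% of all tested genes. In that list 4 genes rose in the proliferating and 5 in the differentiation state, against 3.96% and 2.58% of all genes. Among its 14 members with a mean of at least 1 FPKM in each state, 2 and 3 rose.

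Lcn2, C3, Cxcl10 and Tlr2 rose with NAD+ in the differentiation state. All 4 were under 0.5 FPKM in each proliferating sample and were tested only through their differentiation values. A fall in the proliferating state could therefore not show. Their promoters are given as the 250 bases before the transcription start in the RefSeq annotation of GRCm38.p6, in the direction of the gene. All 4 genes lie on the minus strand. Capitals mark matches, on either strand, to an NF-kB-like pattern (GGGA, any 4 bases, CC) or to a C/EBP pattern (TTGCNNAAT).
Lcn2, chr2:32387740-32387989: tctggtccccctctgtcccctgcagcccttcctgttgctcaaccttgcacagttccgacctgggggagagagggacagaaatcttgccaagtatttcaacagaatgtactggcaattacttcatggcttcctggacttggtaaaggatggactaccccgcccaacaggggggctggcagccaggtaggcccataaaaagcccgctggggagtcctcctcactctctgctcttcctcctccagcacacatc
C3, chr17:57228137-57228386: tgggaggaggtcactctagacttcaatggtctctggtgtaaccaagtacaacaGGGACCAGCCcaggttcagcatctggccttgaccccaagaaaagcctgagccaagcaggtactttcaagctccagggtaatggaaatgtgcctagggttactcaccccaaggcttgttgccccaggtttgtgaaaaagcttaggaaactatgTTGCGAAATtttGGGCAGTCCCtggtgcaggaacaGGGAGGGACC
Cxcl10, chr5:92348890-92349139: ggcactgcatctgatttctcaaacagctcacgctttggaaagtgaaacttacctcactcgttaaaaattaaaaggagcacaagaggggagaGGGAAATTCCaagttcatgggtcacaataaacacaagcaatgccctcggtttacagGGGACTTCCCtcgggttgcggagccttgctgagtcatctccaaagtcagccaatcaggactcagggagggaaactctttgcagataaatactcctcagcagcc
Tlr2, chr3:83841609-83841858: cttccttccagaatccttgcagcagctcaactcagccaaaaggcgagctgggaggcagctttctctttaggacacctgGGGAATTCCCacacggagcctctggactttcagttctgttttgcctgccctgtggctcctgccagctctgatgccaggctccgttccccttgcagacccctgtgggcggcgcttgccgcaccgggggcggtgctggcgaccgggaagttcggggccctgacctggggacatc
The C3 sequence held the C/EBP pattern with its first base 45 bases before the start and the NF-kB-like pattern at 197, 33 and 10 bases before it. Cxcl10 held the NF-kB-like pattern at 159 and 103 bases before the start and Tlr2 at 172 bases, while these letters are not in the Lcn2 window. Over windows of 300 bases (the same 250 and the 50 that follow), the C/EBP pattern was in 2 of 12 genes that were higher in the differentiation state only (16.7%) and in 140 of 9170 promoters of tested genes (1.53%). The NF-kB-like pattern was in 4 of these 12 (33.3%) and in 26.6% of all, and it was in larger shares of other sets, in 8 of 14 genes lower in the differentiation state only (57.1%), in 5 of 10 higher in the proliferating state only (50%) and in 2 of 4 lower there only (50%). A STAT pattern (TTCNNNGAA) was in 2 of the 12 (16.7%) and in 6.56% of all. The core of the cAMP response element (TGACG) was in 1 of the 12 (8.33%) and in 33.7% of all, and an E-box-like pattern (CCANNTGG) in 0 of the 12 and in 7.94% of all. These matches are a description of letters, with no test, over few genes. The 12 include Lcn2, C3, Cxcl10 and Tlr2, which were near 0 in the proliferating state.

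The remaining genes that rose in the differentiation state only came from other functions. Smad2, which carries TGF-beta and activin signals to the nucleus, had 1.69, 1.82 and 1.52 FPKM in differentiation Ctrl and 4.03, 4.61 and 4.35 with NAD+, and 3.14, 2.95 and 3.15 against 2.78, 2.83 and 2.83 in the proliferating state. Its difference of 1.45 (standard error 0.13, limma adjusted p = 0.00181) was called in all 12 fits, and with median-ratio scaling its effects had opposite signs. No other of the 26 tested genes of the ID, BMP and TGF-beta list had a called difference. Slc7a11, the cystine/glutamate exchanger that feeds glutathione synthesis, rose from 15.4, 17.3 and 20.6 to 31.6, 33.7 and 37.6 in the differentiation state, with 5.75 to 8.41 in the proliferating samples (difference 1.09, limma adjusted p = 0.0453). Slc38a2, a sodium-coupled carrier of neutral amino acids, rose from a mean of 22.7 to 41.1, with 20.6 and 21.5 in the proliferating groups (difference 0.79, limma adjusted p = 0.0384). Each of these transporters was called in 3 of 12 fits. Cited1, a transcriptional coactivator, rose from a mean of 4 to 9.14 (difference 1.35, limma adjusted p = 0.0119), Ier3, an immediate early gene, from 8.12 to 17.8 (1.28, limma adjusted p = 0.0273), and Ifitm3, an interferon-induced membrane protein that restricts viral entry, from 51.7 to 84.2 (0.91, limma adjusted p = 0.0244). Sox9, a transcription factor of neural stem cells and astrocytes, rose from 37.4, 37.7 and 39.1 to 47, 50.3 and 52, while its effect in the proliferating state was -0.08 (95% interval -0.22 to 0.06). Sox9 had the lowest difference of this set, 0.46, and was called in 1 of 12 fits.

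Mir22 fell in the differentiation state with the largest change of any called gene. It is the gene of the microRNA miR-22 and covers 95 bases on the plus strand of chromosome 11, inside the noncoding host gene Mir22hg. The hairpin is shown because it is the stretch annotated as this gene, with both mature arms in capitals. Each mature arm is shown with its seed (bases 2 to 8) in capitals, all from RefSeq on GRCm38.p6.
Mir22 hairpin, chr11:75463716-75463810: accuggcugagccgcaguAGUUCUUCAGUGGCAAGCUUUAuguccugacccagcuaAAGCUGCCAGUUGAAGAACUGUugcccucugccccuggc
mmu-miR-22-5p, chr11:75463734-75463755: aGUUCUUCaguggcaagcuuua
mmu-miR-22-3p, chr11:75463772-75463793: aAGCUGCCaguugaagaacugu
Mir22 had 2.98, 2.99 and 1.62 FPKM in differentiation Ctrl and 0.10, 0.04 and 0.12 with NAD+, and the groups did not overlap. In the proliferating state the values were 2.02, 3.03 and 0.98 in Ctrl and 1.02, 1.57 and 2.92 with NAD+, which overlapped and spread about 3-fold within a group. The difference was -3.68 (standard error 0.63, limma adjusted p = 0.0318). It was called under all 4 scalings but in 4 of 12 fits. Mir22hg itself, at 3.76, 3.26 and 3.57 in differentiation Ctrl and 2.65, 3.34 and 3.97 with NAD+, had a difference of -0.08. The value is the one given for the 95-base gene and not for the mature RNAs, and fragments of host gene and hairpin cannot be told apart by position alone. Depth is unknown, so the number of fragments behind these values is unknown, and on so short a gene it may be very small. The fall of Mir22 is given with that limit.

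Among the 16 genes lower in the differentiation state only were genes of lipid uptake, kinases, methionine salvage and nitric oxide signalling. Cd36, a scavenger receptor and fatty acid carrier, fell from 6.31, 7.4 and 8.96 to 2.96, 2.63 and 3.52, while in the proliferating state it was at 5.48, 6.75 and 5.80 in Ctrl and 4.86, 4.81 and 5.55 with NAD+. Its difference of -1.05 (limma adjusted p = 0.0493) was near the threshold and was lost in each of the 12 fits without 1 sample and with median-ratio scaling. Sgk1, a kinase of the PI3K pathway induced by glucocorticoids, fell from 6.07, 5.78 and 6.58 to 3.03, 4.01 and 2.74, against 3.29 to 3.84 in the proliferating samples (difference -0.99, limma adjusted p = 0.0402, with median-ratio scaling 0.0546). Mtap, the phosphorylase that recovers methionine from methylthioadenosine, fell from 13.4, 15.5 and 14.9 to 8.25, 7.83 and 6.65, with 15.8 to 18.7 in the proliferating samples. The Mtap difference of -0.98 (limma adjusted p = 0.012) was called in all 12 fits and under all 4 scalings. Gucy1b1, the haem-binding subunit of soluble guanylyl cyclase, fell from a mean of 4.28 to 2.33 FPKM (difference -0.78, limma adjusted p = 0.0131), and was at 7.41 and 7.07 in the proliferating groups. The potassium channel subunit Kcnc1 and the matrix protein Fbln1 also fell in the differentiation state only (differences -0.80 and -0.89), and both lost their call with median-ratio scaling.

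Among the 10 genes that rose with NAD+ in the proliferating state only were Nwd1, Cplx2, Plxnd1 and Efhd2. Nwd1, a protein with NACHT and WD repeats, had 11.6, 18.1 and 16.5 FPKM in proliferating Ctrl and 38.7, 35.3 and 35.1 with NAD+, and 24.4, 21.7 and 24 against 20.8, 20.6 and 16.1 in the differentiation state. Its effects were 1.26 and -0.29 (95% interval -0.63 to 0.04), a difference of -1.55 (standard error 0.22, limma adjusted p = 0.012) that was called in all 12 fits. Cplx2, a complexin that binds the SNARE complex in synaptic vesicle release, rose from 21.3, 26.6 and 27.2 to 51.9, 57.2 and 54 in the proliferating state, and was at 16.7 to 19.8 in the 6 differentiation samples. For Cplx2 the difference was -1.003 (limma adjusted p = 0.012, called in all 12 fits), and with median-ratio scaling it was counted as a response of the same direction and unequal size. It was the only one of 42 tested presynaptic and axonal genes with a called difference. Plxnd1, a semaphorin receptor, rose from a mean of 6.2 to 12.7 in the proliferating state and Efhd2, a calcium-binding protein, from 4.49 to 8.07. Their differences of -0.89 and -0.96 (limma adjusted p = 0.0335 and 0.0244) were called in only 4 and 6 of 12 fits.

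The 7 genes that fell in the proliferating state only were Kcnmb4, Lhfpl3, Spon1, Gpm6a, Cspg5, Retsat and Scd1. Kcnmb4, a regulatory subunit of the calcium-activated BK potassium channel, fell from 22, 25.2 and 26.3 to 10.2, 11.5 and 14.2, while the differentiation values were 8.99, 8.09 and 8.13 in Ctrl and 8.96, 8.58 and 9.31 with NAD+. Lhfpl3, a membrane protein enriched in oligodendrocyte precursors, fell from 45.5, 47.6 and 49.8 to 32.6, 31.2 and 32.5, and its differentiation values were 57.4, 57.8 and 62.2 in Ctrl and 59.4, 59 and 61 with NAD+. Spon1, a secreted adhesion protein, fell from 38.2, 40.9 and 41 to 26.2, 26 and 25.7, against 69.4 to 73.4 in the differentiation samples. In all 3 the differentiation groups overlapped and the effect there was small, with 95% intervals from -0.16 to 0.34 for Kcnmb4, from -0.11 to 0.14 for Lhfpl3 and from -0.09 to 0.14 for Spon1. Their differences were 1.13, 0.58 and 0.65 (limma adjusted p = 0.0131, 0.012 and 0.00602), each called in all 12 fits. Of the 60 genes with a called difference for which full values were drawn up, 9 overlap another gene with a mean of at least 1 FPKM, among them Kcnmb4 (an antisense gene at 1.82) and Cspg5 (1.51). The strand setting of the counting is not given in the sources used here, and without strand such reads cannot be told apart. Gpm6a, a membrane glycoprotein of neurites, fell from a mean of 232 to 160, Cspg5, a neural chondroitin sulfate proteoglycan, from 66.5 to 47.6, and Retsat, a retinol saturase, from 8.29 to 5.79. Their differences (limma adjusted p = 0.0447, 0.0237 and 0.0263) were called in only 2, 4 and 4 of 12 fits.

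Acsl3, Scd1, Acsf2 and Pygm, of lipid and glycogen metabolism, fell with NAD+ in the proliferating state and did not fall in the differentiation state. Acsl3, which activates long-chain fatty acids, fell from 71.7, 62.6 and 60.7 to 46.6, 40.3 and 40.7 in the proliferating state and stood at 297, 327 and 310 in differentiation Ctrl and at 360, 359 and 350 with NAD+. The differentiation groups did not overlap, although the effect of 0.20 did not pass the adjusted test (limma adjusted p = 0.168). Its difference was 0.81 (limma adjusted p = 0.012, called in all 12 fits). Acsl3 overlaps Utp14b on the same strand, at a mean of 8.10. Scd1, the desaturase that makes oleate, fell from 144, 171 and 178 to 125, 117 and 119, and had an effect of 0.17 in the differentiation state (difference 0.62, limma adjusted p = 0.0382, called in 2 of 12 fits). Acsf2, a mitochondrial acyl-CoA synthetase, fell from a mean of 21.3 to 16.4 in the proliferating state and rose from 55.3 to 77.7 in the differentiation state, with a difference of 0.86 (limma adjusted p = 0.012). Of the 30 tested fatty acid genes, 8 fell and 0 rose in each state, where 2.88% (proliferating) and 5.92% (differentiation) of all genes fell. The called difference was higher for 2 (Acsl3 and Scd1) and lower for 1 (Cd36), against 0.325% and 0.433% of all genes. Pygm, the muscle form of glycogen phosphorylase, which frees glucose 1-phosphate from glycogen, fell from 26.1, 24.7 and 25.6 to 12.8, 11.3 and 11.6, whereas the differentiation groups overlapped at 4.59, 3.88 and 4.19 in Ctrl and 5.72, 5.96 and 4.27 with NAD+. Its difference of 1.41 (standard error 0.17, limma adjusted p = 0.0067) was called in all 12 fits. No other of the 37 tested genes of glycolysis and glycogen had a called difference. That list fell more often than it rose in both states (8 against 1 in the proliferating and 5 against 1 in the differentiation state), with medians of -0.31 and -0.20. Over all genes 2.88% fell and 3.96% rose in the proliferating state, and 5.92% fell and 2.58% rose in the differentiation state.

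Ndrg1, Sod3, Dner and Atp1b2 changed in opposite directions, and each passed the adjusted test in both states. Ndrg1, which is induced by hypoxia and iron loss, fell from 2.98, 4 and 3.79 to 1.44, 2.09 and 1.88 in the proliferating state and rose from 0.42, 0.50 and 0.40 to 0.96, 1.12 and 0.96 in the differentiation state. Its difference was 2.00 (standard error 0.25, limma adjusted p = 0.00904). Of 26 tested hypoxia genes no other had a called difference. Sod3, the superoxide dismutase of the extracellular space, fell from 4.63, 3.20 and 3.81 to 2.43, 2.89 and 2.00 and rose from 3.84, 3.76 and 3.89 to 7.77, 8.90 and 9.06. For Sod3 the 2 Ctrl groups were alike in mean (3.88 and 3.83), and NAD+ moved them apart to 2.44 and 8.58 (difference 1.79, limma adjusted p = 0.0067). Dner, a neuronal Notch ligand, fell from 60.7, 55 and 53.3 to 36.2, 32 and 32.5 and rose from 56.4, 57.5 and 57.8 to 70.6, 68.4 and 69.3 (difference 1.02, limma adjusted p = 0.00181). The Ctrl groups of Dner were again close, at means of 56.3 and 57.2. Atp1b2, the astrocytic beta subunit of the sodium pump, fell from a mean of 226 to 174 and rose from 493 to 582 (difference 0.62, limma adjusted p = 0.0119). All 4 genes were called in all 12 fits and kept opposite signs with median-ratio scaling. The exact permutation test gave each p = 0.005, the smallest its 400 arrangements allow, and also Tnc and Nptx1. By the same exact permutation test Lcn2 and C3 had p = 0.03, Cp 0.05, Tlr2 and Mir22 0.06, Cxcl10 0.075, and H2-D1 and Cplx2 0.095. These p-values are unadjusted, for genes already picked by limma in the same samples, and add no separate support. Angpt1, the ligand of the TIE2 receptor, had 2.87, 2.33 and 2.74 against 2.19, 1.28 and 1.59 in the proliferating state and rose from 4.03, 3.20 and 4.38 to 6.77, 6.35 and 6.19 (difference 1.38, limma adjusted p = 0.0382, called in 3 of 12 fits). Adamts1, a secreted metalloprotease, fell from a mean of 5.85 to 4.12 and had an effect of 0.40 in the differentiation state (difference 0.89, limma adjusted p = 0.0458, called in 1 of 12 fits).

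**Figure D4:**
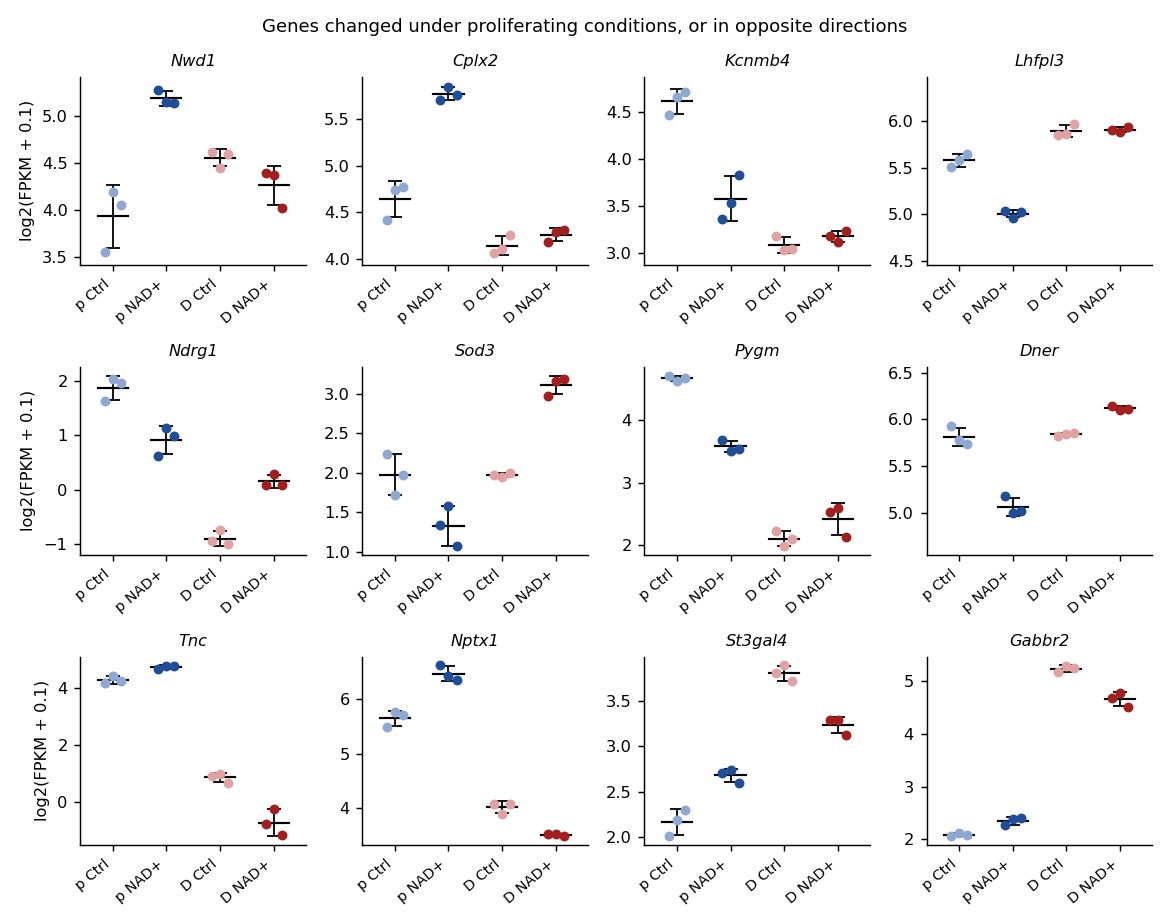
log2(FPKM + 0.1) of 12 genes in each sample (points), with the mean and SD of the 3 samples (bars), in proliferating Ctrl and NAD+ (p, blue) and differentiation Ctrl and NAD+ (D, red). Nwd1 and Cplx2 rose and Kcnmb4 and Lhfpl3 fell in the proliferating state, Ndrg1, Sod3, Pygm and Dner were lower with NAD+ there and higher in mean in the differentiation state, and Tnc, Nptx1, St3gal4 and Gabbr2 the reverse.

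The opposite pairing, up in the proliferating and down in the differentiation state, held Nptx1, St3gal4, Inf2 and Ampd2 among the genes called in both. Nptx1, a secreted pentraxin that gathers AMPA receptors at synapses, rose from 45, 54 and 51.9 to 98.1, 86.1 and 81.8 and fell from 16.9, 14.8 and 16.9 to 11.4, 11.4 and 11.2. Its difference of -1.32 (standard error 0.13, limma adjusted p = 0.00181) was called in all 12 fits. St3gal4, a sialyltransferase, rose from 3.94, 4.46 and 4.82 to 6.43, 6.56 and 5.94 and fell from 13.8, 14.7 and 13.1 to 9.64, 9.66 and 8.64 (difference -1.08, limma adjusted p = 0.0067, called in all 12 fits). It overlaps an antisense gene at a mean of 1.39 FPKM. Inf2, a formin that acts on actin, and Ampd2, the AMP deaminase, had differences of -1.14 and -0.88 (limma adjusted p = 0.0335 and 0.0138), and that of Inf2 was lost with median-ratio scaling (limma adjusted p = 0.0508).

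Tnc and Gabbr2 fell in the differentiation state, and their higher values in the proliferating state did not pass the adjusted test there. Tnc encodes tenascin-C, a matrix glycoprotein of the stem cell niche, and had 18, 21.5 and 18.9 FPKM in proliferating Ctrl, 25.4, 27.5 and 27.1 with NAD+, 1.78, 1.88 and 1.49 in differentiation Ctrl and 0.48, 0.74 and 0.34 with NAD+. In neither state did the groups overlap. Its difference was -2.05 (standard error 0.27, limma adjusted p = 0.0119, called in all 12 fits). Gabbr2, a subunit of the GABA-B receptor, fell from 36.2, 39.3 and 38 to 25.7, 27.4 and 22.9, against 4.10, 4.24 and 4.14 in proliferating Ctrl and 4.72, 5.11 and 5.20 with NAD+ (difference -0.84, limma adjusted p = 0.0119, called in all 12 fits). It was the only one of 17 tested glutamate and GABA receptor genes with a called difference. In that list 7 fell in the proliferating and 4 in the differentiation state, against 2.88% and 5.92% of all genes. A pair of cytoskeletal genes showed the same form. Tubb6, a beta-tubulin, fell from a mean of 8.32 to 4.72 and Septin9, a septin, from 17.1 to 11.5 in the differentiation state, with differences of -1.33 and -0.84. These were called in only 3 and 5 of 12 fits, and the proliferating groups of Septin9 overlapped.

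Genes of PI3K and Akt signalling, the latter named in the title of the series, had 4 called differences among 50 tested, 1 higher (Angpt1) and 3 lower (Fgf1, Sgk1 and Pik3r3), which is 8.0% of the list against 0.758% of all tested genes. That share depended on the scaling. Median-ratio scaling gave 1 higher and 1 lower of 49, quantile normalization 1 and 2 of 50, and the sum without mitochondrial genes 1 and 3 of 49. Angpt1, Sgk1 and Pik3r3 were called in 3, 4 and 5 of 12 fits. Fgf1, a growth factor that signals through FGF receptors, fell from 9.55, 9.77 and 8.64 to 5.43, 5.81 and 4.85 in the differentiation state, against 14.7, 16.8 and 16.8 in proliferating Ctrl and 21.2, 17.7 and 17.9 with NAD+ (difference -1.02, limma adjusted p = 0.012, called in all 12 fits). It overlaps Arhgap26 on the other strand, at a mean of 1.11. Pik3r3, a regulatory subunit of PI3K, rose in the proliferating state from 26.3, 30.5 and 28.8 to 46.3, 39.2 and 39.1 and had 17.1, 14 and 15.4 against 13.4, 12.2 and 10.6 in the differentiation state (difference -0.90, limma adjusted p = 0.0318, with median-ratio scaling 0.0549). For the kinases Akt1 and Akt2 the differences were -0.11 and -0.04, and neither passed the test. The list median was 0.15 in the proliferating and -0.10 in the differentiation state, next to 0.08 and -0.08 over all genes.

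Other functions responded alike in both states or gave no called difference. Of 28 tested genes of cholesterol synthesis and its control, 9 fell in the proliferating state and 17 in the differentiation state, against 2.88% and 5.92% of all genes. In the differentiation state 1 also rose. By limma 0 had a called difference, while 6 reached an unadjusted p under 0.05, against 18.7% of all tested genes. Hmgcs1, which condenses acetyl groups into HMG-CoA, fell from a mean of 369 to 223 and from 133 to 75.5 FPKM (effects -0.73 and -0.83). The medians of that list were -0.44 and -0.70, and its median difference of -0.11 was above that of all genes and lay between -0.18 and 0.05 over the 4 scalings. Of 30 tested oligodendrocyte lineage genes, 7 fell in the proliferating and 11 in the differentiation state, against 2.88% and 5.92% of all genes. Among the 24 with a mean of at least 1 FPKM in each state, 7 and 9 fell. Lhfpl3 was the 1 called difference. Txnip, a glucose-responsive arrestin, rose in both states, from a mean of 14.3 to 31.7 and from 45.3 to 91.3.

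None of 81 nuclear genes of oxidative phosphorylation, 80 ribosomal protein genes, 49 DNA replication genes, 51 genes of G2/M and mitosis and 35 genes of NAD+ metabolism had a called difference by limma. An unadjusted p under 0.05 was reached by 8, 13, 19, 9 and 10 of them, against 18.7% of all tested genes. Of the 49 replication and 51 G2/M genes, 21 and 46 did not average 1 FPKM in each state. Nothing is read from the G2/M list for that reason. The 28 replication genes with a mean of at least 1 FPKM in each state had a median effect of 0.20 in the proliferating state, where 1 rose (3.96% of all genes). In the differentiation state their median was -0.18 and 2 fell (5.92% of all genes), and the median difference was -0.38. Over all 49 replication genes the median difference of -0.39 lay between -0.46 and -0.22 over the 4 scalings. Their differentiation levels were low, with Mcm2 at 16.1 FPKM in proliferating Ctrl and 1.08 in differentiation Ctrl. The oxidative phosphorylation genes had medians of -0.20 and -0.09, with 4 that fell in the proliferating state (2.88% of all genes) and 0 called in the differentiation state. In all, 46 of 48 lists had a tested member, 23 of the 46 held no called difference, and 31 of the 98 called genes were in any list, so that most of the state-dependent genes belonged to none of the functions listed. The plot of list medians places each function by its effect in both states.

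**Figure D5:**
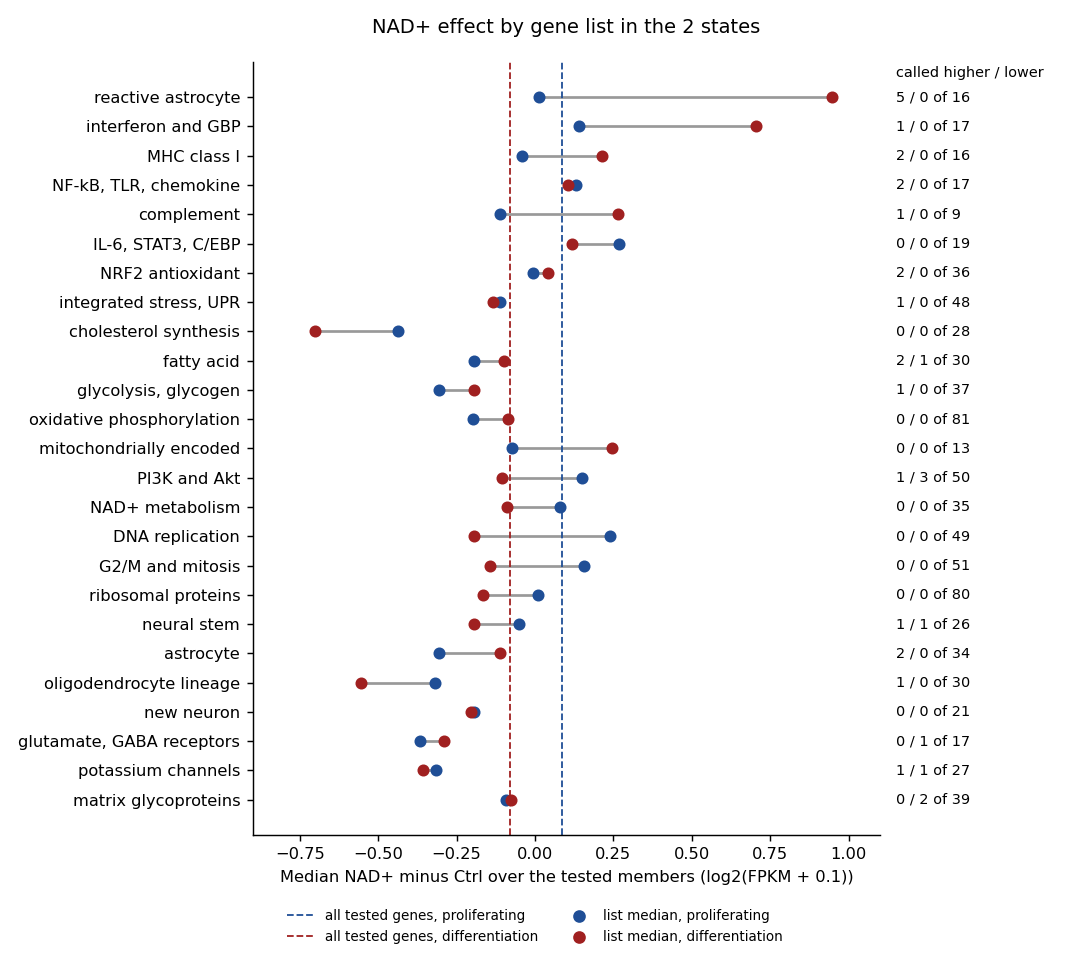
Median NAD+ effect over the tested members of 25 gene lists on the log2(FPKM + 0.1) scale, in the proliferating state (blue) and the differentiation state (red), with the medians over all tested genes as dashed lines (0.08 and -0.08). Numbers at the right give the called differences, higher and lower, of the tested members. Every tested member is included, also those that did not average 1 FPKM in each state. These were 7 of 16 in the reactive astrocyte list (0.01 and 0.95) and 46 of 51 in the G2/M list, and nothing is read from either. In the DNA replication list they were 21 of 49.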

How the data were processed

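RNA from 12 samples of mouse aNSPCs was sequenced, 3 in each of 4 groups. The authors used Hisat2 (v2.0.5) and the mm10 genome, kept uniquely mapped reads, counted them per gene with FeatureCounts (v2.0.1) and deposited FPKM values rounded to 0.01 in 2 tables, 1 for each state. The tables also hold the authors' own fold changes, p-values and q-values, which were not used. The 2 tables were joined by gene identifier, and values were analysed as log2(FPKM + 0.1) for genes whose FPKM averaged 1 or more across all samples. Both tables were taken to share 1 normalization, per sample, and depth per sample is unknown. limma (version 3.58.1, R 4.3.3) was fitted to the 4 groups with a mean-dependent prior variance, two-sided, with Benjamini-Hochberg adjustment over all 12928 genes, called at an adjusted p under 0.05. The NAD+ effect in each state and the difference of the effects were contrasts of that fit. The fit was tested on simulated data. For single genes an exact permutation test, two-sided, exchanged NAD+ and Ctrl labels within each state over 400 arrangements.

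Alternatives were the number added before taking logs, the minimum FPKM, the scaling, the moderation, a replicate block, leaving out each sample and fitting each state alone. Array weights, and median-ratio scaling together with leaving out proliferating Ctrl replicate 1, were added after seeing the data, as were list counts over members with a mean of at least 1 FPKM in each state.

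The gene lists, the rule for named genes and the comparison itself were chosen with earlier results of these data known. Named were the called genes with the largest differences in each direction, the called members of gene lists, and the genes of opposite direction with the largest effects. Chosen after their values were seen were Cspg5, Gpm6a, Spon1, Acsf2, Retsat, Pdlim4, Plxnd1, Efhd2, Mtap, Gucy1b1, Slc38a2, Ier3, Ifitm3, Tmem255a, Cited1, Septin9, Arl4c, Rcn2, Ecrg4, Tmem176a, Ampd2, Cplx2, Txnip, Hmgcs1, Mir22hg, Gfap, Steap4, Serpina3n, Gbp2, B2m, Timp1, Cd109, Cd68, Mcm2, Akt1 and Akt2. Promoter and microRNA sequences were taken from RefSeq on GRCm38.p6, where 9170 of 12917 gene names had a promoter. Some items are not reported here.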

Additional observations from a re-analysis of the deposited data

Results flagged for a closer look

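Listed here are the 60 genes with a called difference for which full values were drawn up. All 60 passed the limma test of the difference because they were chosen by it, and genes that did not pass are left out. Values are differences on the log2(FPKM + 0.1) scale, differentiation minus proliferating, against a median of -0.16 over all tested genes.

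Immune and acute-phase genes differed upwards, by 3.01 for Lcn2, 2.79 for C3, 1.62 for Cxcl10, 1.58 for Tlr2, 1.56 for Gbp3, 1.30 for Cp, 1.30 for H2-Q4, 0.90 for H2-D1 and 0.91 for Ifitm3. Genes of signalling and transcription differed by 1.45 for Smad2, 1.35 for Cited1, 1.28 for Ier3, 1.38 for Angpt1, 0.46 for Sox9 and 1.02 for Dner. Genes of transport and metabolism differed by 2.00 for Ndrg1, 1.79 for Sod3, 1.41 for Pygm, 1.09 for Slc7a11, 0.79 for Slc38a2, 0.81 for Acsl3, 0.86 for Acsf2, 0.62 for Scd1, 0.52 for Retsat and 0.62 for Atp1b2. Membrane and matrix genes differed by 1.13 for Kcnmb4, 0.58 for Lhfpl3, 0.65 for Spon1, 0.47 for Cspg5, 0.47 for Gpm6a and 0.89 for Adamts1. The others that differed upwards were Tmem255a (1.13), Tmem176a (0.53), Ecrg4 (1.02) and Rcn2 (0.72).

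Downwards, the noncoding genes Mir22 and Gm35040 differed by -3.68 and -1.30. Matrix, synaptic and channel genes differed by -2.05 for Tnc, -0.89 for Fbln1, -1.32 for Nptx1, -1.003 for Cplx2, -0.84 for Gabbr2 and -0.80 for Kcnc1. Cytoskeletal genes differed by -1.33 for Tubb6, -1.14 for Inf2, -0.84 for Septin9 and -0.80 for Pdlim4. Signalling genes differed by -1.02 for Fgf1, -0.99 for Sgk1, -0.90 for Pik3r3, -0.89 for Plxnd1, -0.96 for Efhd2, -0.78 for Gucy1b1 and -0.71 for Arl4c. The remaining values were -1.55 for Nwd1, -1.16 for Ddias, -1.08 for St3gal4, -1.05 for Cd36, -0.98 for Mtap and -0.88 for Ampd2. The proliferating values of Lcn2, C3, Cxcl10 and Tlr2 were all under 0.5 FPKM, so that these differences rest on values near 0 in that state.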

How the results depend on the processing

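No named gene's called difference changed sign under any alternative. The balance of higher to lower calls turned over under 2 scalings, without a minimum FPKM (35 and 28), with the replicate block (24 and 20) and with the block within each state (43 and 36). It also turned over when any of several single samples was left out, as without proliferating NAD+ replicate 3 (19 and 10). Over the 4 scalings 28 of 46 lists had a median difference of both signs. Counts of called differences moved by over 1.5 times as follows, the cause of which was not tested. With 1 added before taking logs 189 genes were called, 77 higher and 112 lower, of which 110 in 1 state only. Median-ratio scaling gave 90 higher and 21 lower and quantile normalization 89 and 34. Without a minimum FPKM 63 were called, 28 of them lower and 27 opposite, and 506 in the proliferating state. With only the 6 proliferating samples fitted, 67 genes were called there in place of 884. Array weights, added after seeing the data, gave 1556 called differences (317 higher, 1239 lower), 981 in 1 state only and 444 opposite, with 2107 called under differentiation and 3491 under proliferating conditions. Median-ratio scaling without proliferating Ctrl replicate 1, also added later, gave 180, of which 126 higher, 96 in 1 state only and 70 opposite, and 1703 under differentiation conditions.

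Leaving out 1 sample gave 29 to 308 called differences (19 to 92 higher, 10 to 216 lower), 13 to 178 in 1 state only, 14 to 111 opposite, 486 to 1947 genes under differentiation and 293 to 889 under proliferating conditions. The lowest count of differences was without proliferating NAD+ replicate 3 and the highest without proliferating Ctrl replicate 1. Of the 60 named genes 26 to 59 kept their call in these fits, 52 with median-ratio scaling, 51 with quantile normalization, 50 with scaling to the non-mitochondrial sum, 38 without a minimum FPKM, 32 with the replicate block and 35 with the block within each state.

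With the replicate number as a replicate block 44 were called, 24 higher and 20 lower, 19 in 1 state only and 23 opposite, and with a block within each state 36 were lower. Deviations of samples with the same number had correlations of 0.0125 to 0.167 in the proliferating and 0.0195 to 0.0783 in the differentiation state, and with different numbers of -0.171 to 0.126 and -0.081 to 0.0339, with means of 0.0878 and 0.0488 against -0.0414 and -0.0244. All 6 same-number values were above 0 but not all above 0.1, and proliferating Ctrl replicates 2 and 3 correlated best with NAD+ replicates 3 and 2. The labels do not say whether a number marks a shared culture, and the numbers were not taken to pair the samples. Depth is unknown, and no limit from counting could be set on genes near 0 such as Lcn2 in the proliferating state.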
